A study of Mus musculus with 15 samples.

Results

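Lysosomes are the acid compartments in which cells take apart proteins, sugars and lipids, and the genes described here encode the hydrolases that do this work and the proteins of the membrane that encloses it. The list holds 32 genes, chosen by function with earlier results of these data known, and leaves aside the cathepsins and proton pump subunits. Of these, 29 had a probe set annotated to that gene alone, out of 8251 genes represented in that way, while Aga, Arsb and Ostm1 had none and are not described. Where a gene had several probe sets, the brightest on average over the 15 arrays stands for it. The 29 genes fall into 8 lysosomal membrane proteins, 4 glycosidases of glycoproteins and glycogen, 8 sphingolipid hydrolases and activator proteins, 3 glycosaminoglycan hydrolases, 2 proteins of sterol and neutral lipid handling, and 4 proteases, thioesterases and phosphatases.

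The study followed RAW264.7, an established macrophage-like cell line from mouse whose cells fuse into osteoclast-like cells under RANKL, the cytokine that drives osteoclast formation. All cultures grew in alpha MEM with 10% FBS, and medium without serum, with RANKL for the treated cells and without it for the controls, was given on days 0 and 3. RNA came from 7 arrays of RANKL cells, taken on day 1 (1 array) and on days 2, 4 and 5 (2 arrays each), and from 8 control arrays, taken on days 1 and 5 (1 array each) and on days 2, 3 and 4 (2 arrays each). RANKL cells of day 3 were not analysed here. The labels call RANKL cells of days 4 and 5 multi-nuclear and all other samples mononuclear. Whether replicates came from separate cultures is not stated, and the spread behind the p-values may thus be technical.

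Most soluble lysosomal enzymes receive a mannose 6-phosphate tag in the Golgi, are carried to endosomes by receptors for that tag, and are freed there as the compartment acidifies. Transcription factors of the MiT/TFE family, TFEB among them, bind a palindromic E-box with the core CACGTG and drive many lysosomal genes when nutrients are short or mTORC1 is inactive. Macrophages use lysosomes to digest what they engulf. Osteoclasts send lysosomal vesicles to the bone-facing membrane, where fusion releases their enzymes onto bone and places lysosomal membrane proteins in the ruffled border.

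In both treatments many of the lysosomal genes were higher late in culture. Between days 1 and 2 and days 4 and 5, 11 of the 29 rose in RANKL cells, against 8.98% of all probe sets. In control cells 12 of the 29 rose, against 5.98%. In neither treatment did a gene of the 29 fall, against 5.82% of all probe sets in RANKL cells and 4.87% in control cells. The control count was 3 with a measure of RNA integrity as a covariate and 5 without the day 1 control array. Genes that rose in both treatments included the membrane protein Lamp2, the ganglioside hydrolase subunit Hexa and the protease Tpp1. RANKL changed 0 of the 29 past the threshold over the 4 shared days or on any of them, where 0% to 1.09% of all probe sets passed, a share at which few or none of 29 would. The threshold throughout was an adjusted p of 0.05 from limma, with Benjamini-Hochberg adjustment over 12422 probe sets. Values are MAS5 signals on a linear scale, changes are differences of log2(signal + 32), and ± gives the standard error (SE) from limma unless an SD is named. The added 32 understates the changes of dim genes, which here are Ppt1, Gla, Galc and Idua. Shares of all probe sets, here and below, include dim probe sets, whereas a gene is represented by its brightest one. These shares were not matched to the genes for brightness, and the part of brightness in the contrasts was not tested. In bulk RNA of this kind, fewer cells of a type and less RNA per cell cannot be told apart.

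The promoters of 5 of the genes are shown because they differ in the E-box that MiT/TFE factors bind, while Gla, Gaa, Lgmn and Lamp2 rose with time in at least 1 treatment and Lamp1 did not pass the test. Each runs from 250 bases before the gene's start to 50 after it, 5′ to 3′ on the gene's strand, from RefSeq on GRCm38.p6. Capitals mark TCACGTG or its reverse complement CACGTGA, and TCACGTGA where both overlap. The coordinates are chrX:134600956-134601255 on the minus strand for Gla, chr11:119267713-119268012 on the plus strand for Gaa, chr12:102439043-102439342 on the minus strand for Lgmn, chr8:13158911-13159210 on the plus strand for Lamp1, and chrX:38456411-38456710 on the minus strand for Lamp2.
Gla: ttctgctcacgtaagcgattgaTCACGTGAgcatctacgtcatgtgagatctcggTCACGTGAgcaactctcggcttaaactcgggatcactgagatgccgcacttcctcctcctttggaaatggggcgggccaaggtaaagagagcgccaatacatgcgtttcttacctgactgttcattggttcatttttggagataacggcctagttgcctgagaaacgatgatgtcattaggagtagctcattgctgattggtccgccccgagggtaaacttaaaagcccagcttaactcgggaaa
Gaa: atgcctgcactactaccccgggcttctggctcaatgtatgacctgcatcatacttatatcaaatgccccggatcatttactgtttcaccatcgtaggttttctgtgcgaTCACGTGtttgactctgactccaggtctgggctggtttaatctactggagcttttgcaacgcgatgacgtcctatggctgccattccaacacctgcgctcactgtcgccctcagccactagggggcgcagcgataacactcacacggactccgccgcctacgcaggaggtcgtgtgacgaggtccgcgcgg
Lgmn: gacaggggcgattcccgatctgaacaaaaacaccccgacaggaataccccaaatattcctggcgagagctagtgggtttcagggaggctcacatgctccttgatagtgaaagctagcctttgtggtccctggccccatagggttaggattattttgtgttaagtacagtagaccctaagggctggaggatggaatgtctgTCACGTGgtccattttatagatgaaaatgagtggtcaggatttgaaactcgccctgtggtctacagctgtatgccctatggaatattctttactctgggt
Lamp1: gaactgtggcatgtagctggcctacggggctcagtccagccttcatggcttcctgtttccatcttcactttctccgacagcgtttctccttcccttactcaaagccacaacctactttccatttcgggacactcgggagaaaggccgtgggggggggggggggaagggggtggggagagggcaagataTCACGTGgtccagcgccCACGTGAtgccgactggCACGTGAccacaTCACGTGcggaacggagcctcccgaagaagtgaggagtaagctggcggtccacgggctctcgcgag
Lamp2: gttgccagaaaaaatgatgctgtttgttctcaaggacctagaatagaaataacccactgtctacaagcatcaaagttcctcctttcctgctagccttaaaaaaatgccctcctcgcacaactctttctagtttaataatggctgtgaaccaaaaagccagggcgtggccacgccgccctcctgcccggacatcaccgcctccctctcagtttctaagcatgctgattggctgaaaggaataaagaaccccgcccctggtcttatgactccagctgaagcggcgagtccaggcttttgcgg
Gla held 2 matches, Lamp1 4, and Gaa and Lgmn 1 each, for Lgmn in 1 of its 2 tabulated promoters. Lamp2 held none in this window. Of the 27 lysosomal genes with a tabulated promoter, 6 (22.2%) held the motif in at least 1 promoter, namely Cln3, Gaa, Gla, Glb1, Lamp1 and Lgmn, against 4.29% of 27025 genes. The shorter core CACGTG was held by the same 6 genes, against 8.09% of all genes. Of the genes that rose with time in either treatment, 12 had a promoter in the table, and 3 of them (Gaa, Gla and Lgmn) held the motif. A match is a description of the letters and not of binding.

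RANKL cells of days 4 and 5 were set against RANKL cells of days 1 and 2, and control cells likewise, to ask how the genes changed with time in each treatment. In RANKL cells 11 of the 29 genes (37.9%) rose, against 8.98% of all probe sets, and 0 fell, against 5.82% of all probe sets. In control cells 12 (41.4%) rose, against 5.98% of all probe sets, and 0 fell, against 4.87%. The median signal of an array lay between 103 and 149.2, and most of the 29 genes were brighter than that. The shares of all probe sets were not matched for brightness, and its part in these contrasts was not tested. An unadjusted p under 0.05 was reached by 18 genes in RANKL cells and by 18 in control cells. Here and below, counts at an unadjusted p stand without a share of all probe sets, which was not computed at that cut-off. They do not show more changes among these genes than over all probe sets. The median change of the 29 genes was 0.47 in RANKL cells and 0.64 in control cells, where the median over all genes was 0.05 in RANKL cells and -0.04 in control cells. The change was positive for 24 genes in RANKL cells and for 27 in control cells. Without the day 1 control array 5 genes passed in control cells (Lamp2, Npc1, Hexa, Idua and Tpp1).

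**Figure D1:**
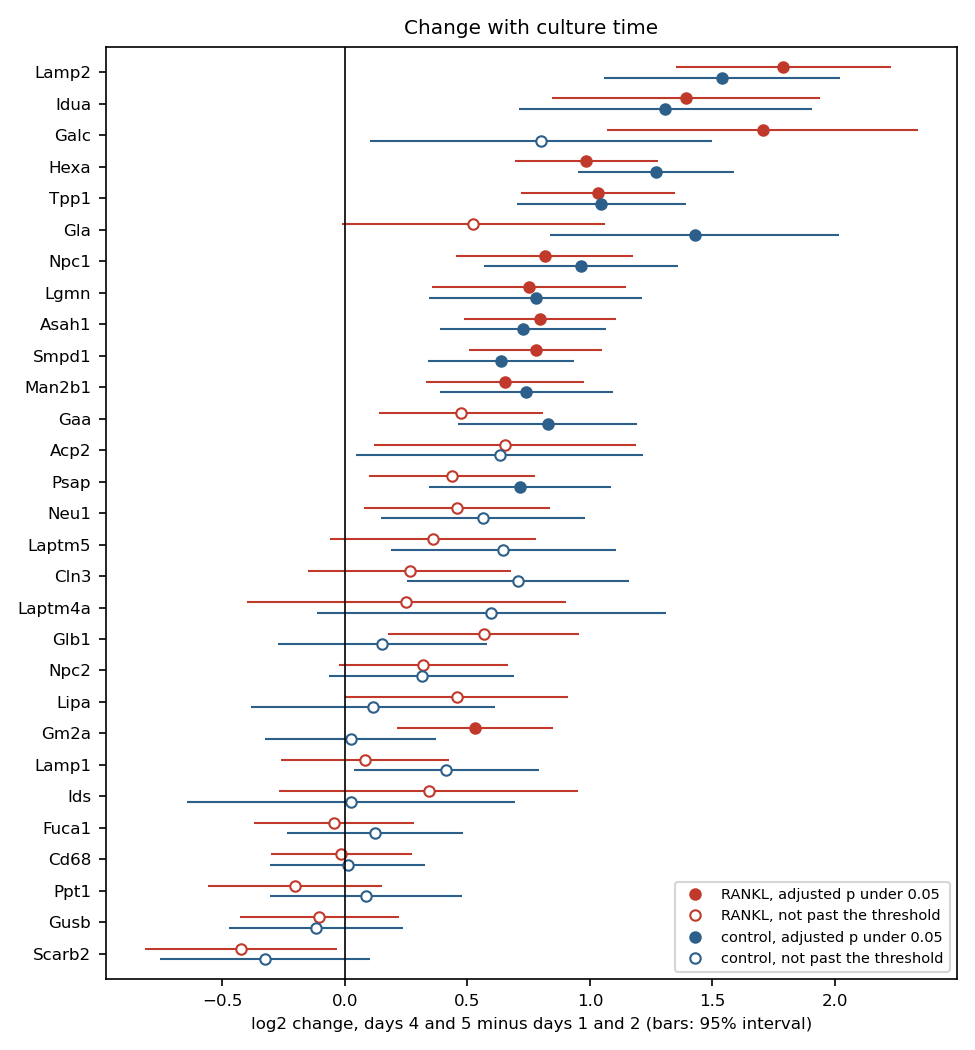
Log2 change of each of the 29 lysosomal genes between days 1 and 2 and days 4 and 5 of culture, in RANKL cells and in control cells. Points are changes and bars 95% intervals; filled points passed an adjusted p of 0.05, 11 of them in RANKL cells and 12 in control cells, all to the right of 0.

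Smpd1, Lamp2, Idua, Lgmn, Tpp1, Asah1, Hexa, Npc1 and Man2b1 rose in both treatments. These 9 are 9 of the 11 in RANKL cells and 9 of the 12 in control cells. Of the 9, Man2b1 and Smpd1 passed in neither treatment with the mean of a gene's probe sets. Over all probe sets, 456 rose in both, of 1116 in RANKL cells and 743 in control cells. Galc and Gm2a passed the threshold in RANKL cells alone, and Gla, Gaa and Psap in control cells alone. The difference between the 2 time changes was tested too, and 0 of the 29 genes passed (0.0403% of all probe sets), with 2 at an unadjusted p under 0.05. The difference, RANKL minus control, was 0.90 ± 0.43 for Galc (limma adjusted p = 0.626), -0.90 ± 0.36 for Gla (limma adjusted p = 0.578) and 0.51 ± 0.22 for Gm2a (limma adjusted p = 0.609).

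Some macrophage markers also rose with time. Of 10 macrophage markers, 3 rose in RANKL cells (Itgam by 2.40, Adgre1 by 1.33 and Msr1 by 0.89), and 5 rose in control cells, those 3 with Fcgr1 and Irf8, while 3 of the 10 had negative changes in each treatment. The summed signal of the list was 26940 to 50590 on late and 35300 to 55370 on early RANKL arrays, and 47760 to 50450 on late and 43730 to 50810 on early control arrays. Mrc1 was under 100 on all arrays. Between days 4 and 5 in RANKL cells all 10 had negative changes, with a median of -0.87, beside the negative median of the lysosomal genes. The 9 osteoclast markers summed to 23320 to 36950 on late and 8655 to 16970 on early RANKL arrays, and to 5050 to 5481 on late and 4814 to 8876 on early control arrays, with Calcr and Itgb3 under 100 on all. Markers of stromal cells, T cells, B cells, neutrophils and erythroid cells changed past the threshold for 0 genes with time in either treatment. The ratio of the beta-actin 3′ to 5′ probe sets, a measure of RNA integrity, was 1.02 to 1.34 on late and 1.19 to 1.39 on early RANKL arrays, and 1.01 to 1.16 on late and 1.17 to 1.25 on early control arrays. With this ratio as a covariate, 3 of the 12 rises in control cells passed (Lamp2, Hexa and Tpp1), and the changes of the other 9 stayed positive, among them 1.77 for Gla, 1.66 for Idua, 1.05 for Lgmn, 1.01 for Npc1, 0.75 for Asah1, 0.71 for Gaa, 0.65 for Man2b1, 0.59 for Smpd1 and 0.54 for Psap. The part of the markers in the results was not tested.

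Among the lysosomal membrane proteins, Lamp2 and Npc1 rose with time in both treatments, and the other 6 did not pass the test in either. Lamp2 is a heavily glycosylated protein of the lysosomal membrane that serves in fusion with autophagosomes and in chaperone-mediated autophagy. Its RANKL signals were 760.4 on day 1, 536.9 and 382.3 on day 2, 2627 and 3113 on day 4, and 1769 and 1369 on day 5. Its control signals were 604 on day 1, 1059 and 1086 on day 2, 3267 and 3354 on day 3, 2129 and 3741 on day 4 and 2047 on day 5. Every late array lay above every early array of its own treatment, with day 3 of the controls counted as late. The change was 1.79 ± 0.20 in RANKL cells (3.46-fold, limma adjusted p = 0.000541) and 1.54 ± 0.22 in control cells (2.91-fold, limma adjusted p = 0.00211). A second, distinct probe set of Lamp2 changed by 0.33 in RANKL cells (limma adjusted p = 0.301) and 0.58 in control cells (limma adjusted p = 0.104), in the same direction but short of the threshold.

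Npc1, the membrane transporter that moves cholesterol out of the lysosome, had 755.6 on day 1, 817.9 and 667.3 on day 2, 1564 and 1801 on day 4, and 1297 and 878.1 on day 5 in RANKL cells. Control cells had Npc1 signals of 641.5 on day 1, 802.8 and 865.3 on day 2, 1436 and 1434 on day 3, 1595 and 1233 on day 4 and 1515 on day 5. The late arrays again lay above all early arrays in each treatment. The change was 0.82 ± 0.16 in RANKL cells (1.76-fold, limma adjusted p = 0.00744) and 0.96 ± 0.18 in control cells (1.95-fold, limma adjusted p = 0.00691).

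The other membrane proteins did not pass the test for time. Lamp1, a major glycoprotein of the membrane, had 9080 to 16370 in the 4 late RANKL arrays against 10170 to 13090 in the early ones, and 13910 to 14270 in the 3 late control arrays against 9840 to 11670. Its change was 0.08 in RANKL cells and 0.41 in control cells (limma adjusted p = 0.162). Cd68, a heavily glycosylated lysosomal protein of macrophages, changed by -0.02 in RANKL cells and 0.01 in control cells, and its signals on all 15 arrays lay between 8314 and 11230. Scarb2, the receptor that brings beta-glucocerebrosidase to lysosomes, changed by -0.43 ± 0.18 in RANKL cells (limma adjusted p = 0.142), where all 4 late arrays lay below the 3 early ones (3.45% of the genes, against 8.24% of all probe sets). Its change in control cells was -0.33 ± 0.20 (limma adjusted p = 0.366). Laptm4a and Laptm5, small transmembrane proteins of late endosomes and lysosomes, changed by 0.25 and 0.36 in RANKL cells and by 0.60 and 0.65 in control cells. Cln3, mutated in juvenile Batten disease, changed by 0.27 in RANKL cells and by 0.71 in control cells (limma adjusted p = 0.0508), while its other, dim probe set changed by 0.49 in RANKL cells and -0.48 in control cells.

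Of the 4 glycosidases that strip sugars from glycoproteins and glycogen, Man2b1 rose in both treatments and Gaa in control cells. Man2b1, the lysosomal alpha-mannosidase, had 1157 on day 1, 1081 and 920.6 on day 2, 2480 and 2248 on day 4, and 1248 and 1217 on day 5 under RANKL. Without RANKL its signals were 812.8 on day 1, 1713 and 2012 on day 2, 2817 and 3481 on day 3, 2224 and 2959 on day 4 and 1681 on day 5. The day 5 control array lay below both day 2 control arrays, so late and early controls overlap, whereas late and early RANKL arrays do not. The change was 0.65 ± 0.15 in RANKL cells (1.57-fold, limma adjusted p = 0.0124) and 0.74 ± 0.16 in control cells (1.67-fold, limma adjusted p = 0.0139). Without the day 1 control array the control change was 0.16 (limma adjusted p = 0.686), and without replicate 1 of control day 2 it was 0.68 (limma adjusted p = 0.0505). Its other probe set changed by 0.11 in RANKL cells and 0.29 in control cells. With the mean of its probe sets, Man2b1 changed by 0.38 in RANKL cells (limma adjusted p = 0.17) and 0.51 in control cells (limma adjusted p = 0.112). With the beta-actin ratio as a covariate, its RANKL change was 0.595 (limma adjusted p = 0.0767).

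Gaa, the acid alpha-glucosidase that digests glycogen, had 1529 on day 1, 1364 and 1095 on day 2, 2295 and 1767 on day 4, and 1767 and 1858 on day 5 in RANKL cells. The control arrays had 1045 on day 1, 1273 and 1636 on day 2, 1875 and 1693 on day 3, 1847 and 2181 on day 4 and 2419 on day 5. Late arrays lay above all early arrays in each treatment. The change was 0.47 in RANKL cells (limma adjusted p = 0.0591) and 0.83 ± 0.17 in control cells (1.77-fold, limma adjusted p = 0.00998). The control change was 0.60 (limma adjusted p = 0.0792) without the day 1 control array. A dim second Gaa probe set changed by -0.24 in RANKL cells and 0.04 in control cells. The mean of both Gaa probe sets changed by 0.43 in control cells (limma adjusted p = 0.182). Neu1, the lysosomal sialidase, changed by 0.46 in RANKL cells and 0.56 in control cells (limma adjusted p = 0.0854), and its late control arrays, day 3 included, lay above all early ones. Fuca1, the alpha-fucosidase, changed by -0.04 in RANKL cells and 0.12 in control cells.

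Of the sphingolipid hydrolases and their activators, 5 of 8 rose in RANKL cells, against 8.98% of all probe sets, and 5 of 8 in control cells, against 5.98%. Of those 5 in control cells, only Hexa passed without the day 1 control array. Hexa encodes the alpha subunit of the beta-hexosaminidase that cleaves GM2 ganglioside. RANKL cells had Hexa signals of 1935 on day 1, 2050 and 2432 on day 2, 5365 and 5668 on day 4, and 3490 and 2785 on day 5. Controls had 1356 on day 1, 2412 and 2320 on day 2, 5803 and 5293 on day 3, 5635 and 5066 on day 4 and 3565 on day 5. The lowest late array lay above the highest early array in each treatment. The change was 0.99 ± 0.13 in RANKL cells (1.98-fold, limma adjusted p = 0.00111) and 1.27 ± 0.15 in control cells (2.41-fold, limma adjusted p = 0.000841). A dim second probe set of Hexa, with signals of 34.43 to 108.7, changed by 0.30 in RANKL cells and by -0.16 in control cells.

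Asah1, the acid ceramidase, had 926.2 on day 1, 798.6 and 625.7 on day 2, 1476 and 1700 on day 4, and 1418 and 1174 on day 5 in RANKL cells. Its control values were 831.4 on day 1, 1111 and 1021 on day 2, 1758 and 1814 on day 3, 1506 and 1814 on day 4 and 1510 on day 5. No late array overlapped an early array of its treatment. The change was 0.80 ± 0.14 in RANKL cells (1.74-fold, limma adjusted p = 0.00402) and 0.73 ± 0.15 in control cells (1.66-fold, limma adjusted p = 0.0127). Leaving out the day 1 control array gave a control change of 0.56 (limma adjusted p = 0.0792).

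Smpd1 encodes acid sphingomyelinase, which releases ceramide from sphingomyelin. Under RANKL it had 1116 on day 1, 1191 and 1186 on day 2, 1857 and 1555 on day 4, and 2252 and 2443 on day 5. The control arrays gave 795.3 on day 1, 941 and 1078 on day 2, 1584 and 1386 on day 3, 1507 and 1479 on day 4 and 1330 on day 5. Late and early arrays did not overlap in either treatment, and the 2 day 5 RANKL arrays were the highest of all 15. The change was 0.78 ± 0.12 in RANKL cells (1.71-fold, limma adjusted p = 0.00239) and 0.64 ± 0.14 in control cells (1.55-fold, limma adjusted p = 0.013). With the day 1 control array left out, the control change was 0.47 (limma adjusted p = 0.0875). A dim second probe set of Smpd1 changed by 0.03 in RANKL cells and 0.14 in control cells. With the mean of its probe sets, Smpd1 changed by 0.40 in RANKL cells (limma adjusted p = 0.145) and 0.39 in control cells (limma adjusted p = 0.228).

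Galc, the galactosylceramidase, was dim, with 7 of 15 arrays under 100. Its signals were 11.55 on day 1, 41.54 and 13.74 on day 2, 109.7 and 208 on day 4, and 145.8 and 86.92 on day 5 in RANKL cells. Control cells gave 64.26 on day 1, 56.93 and 85 on day 2, 150.1 and 204.9 on day 3, 163 and 162.5 on day 4 and 120.9 on day 5. Late arrays lay above all early ones in each treatment, and the 3 early RANKL arrays were the lowest of all 15. The change was 1.70 ± 0.29 in RANKL cells (limma adjusted p = 0.00332) and 0.80 ± 0.32 in control cells (limma adjusted p = 0.144). The early RANKL signals are near the bottom of the scale, so the size of the RANKL change depends on the pseudocount, with 2.89 at 1 and 0.97 at 100, and no fold is given.

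Gla, the alpha-galactosidase A, was under 100 on 8 of 15 arrays. It had 28.46 on day 1, 69.16 and 71.61 on day 2, 128.3 and 127.2 on day 4, and 65.34 and 33.91 on day 5 in RANKL cells. Signals without RANKL were 18.5 on day 1, 73.56 and 100.5 on day 2, 148 and 91.57 on day 3, 193.6 and 245.3 on day 4 and 140.8 on day 5. Both day 1 arrays were the lowest of their treatment, and the late control arrays of days 4 and 5 lay above every RANKL array. The change was 0.52 in RANKL cells (limma adjusted p = 0.191) and 1.43 ± 0.27 in control cells (2.69-fold, limma adjusted p = 0.00705). Without the day 1 control array, the lowest of the controls, the control change was 0.81 (limma adjusted p = 0.132).

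Psap, the precursor of the saposins that present lipids to these enzymes, had 5214 on day 1, 4320 and 3464 on day 2, 8289 and 6762 on day 4, and 5386 and 4553 on day 5 in RANKL cells. In the controls it had 3450 on day 1, 4237 and 4949 on day 2, 7188 and 8637 on day 3, 6525 and 7204 on day 4 and 6231 on day 5. Control arrays of days 3 to 5 lay above all control arrays of days 1 and 2, while the day 5 RANKL replicate at 4553 lay under the day 1 RANKL array. The change was 0.44 in RANKL cells (limma adjusted p = 0.0824) and 0.71 ± 0.17 in control cells (1.64-fold, limma adjusted p = 0.0212). The control call was lost without the day 1 array (0.51, limma adjusted p = 0.136), without replicate 1 of day 2 (0.66, limma adjusted p = 0.0705) and without replicate 2 of day 4 (0.68, limma adjusted p = 0.0709). Of the other 2 probe sets of Psap, 1 changed by 0.68 in RANKL cells and 1.54 in control cells (limma adjusted p = 0.00828), and the other by 0.25 and 0.09.

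Gm2a, the activator that lifts GM2 ganglioside out of the membrane for hexosaminidase, had 1505 on day 1, 1021 and 1253 on day 2, 1916 and 2249 on day 4, and 1622 and 1857 on day 5 in RANKL cells. Control signals were 1084 on day 1, 1550 and 1336 on day 2, 1229 and 1488 on day 3, 1248 and 1502 on day 4 and 1178 on day 5. The 4 late RANKL arrays were the highest of all 15 arrays, and the control days overlapped throughout. The change was 0.53 ± 0.15 in RANKL cells (1.44-fold, limma adjusted p = 0.0303) and 0.02 ± 0.16 in control cells (limma adjusted p = 0.96). With the beta-actin ratio as a covariate, the RANKL change was 0.58 (limma adjusted p = 0.0793). The RANKL call was lost without replicate 1 of RANKL day 2 (0.46, limma adjusted p = 0.073), replicate 2 of RANKL day 4 (0.47, limma adjusted p = 0.0855) or replicate 2 of RANKL day 5 (0.48, limma adjusted p = 0.0699). Glb1, the beta-galactosidase, changed by 0.57 in RANKL cells (limma adjusted p = 0.0534), with late arrays all above early ones, and by 0.15 in control cells.

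Of the 3 glycosaminoglycan hydrolases, Idua rose in both treatments. Idua, the alpha-L-iduronidase that acts on heparan and dermatan sulfate, had 85.32 on day 1, 116.1 and 93 on day 2, 339.6 and 385.2 on day 4, and 343.6 and 175.4 on day 5 in RANKL cells. Its signals in control cells were 90.6 on day 1, 98.66 and 144 on day 2, 338 and 246.5 on day 3, 314.4 and 370.7 on day 4 and 273 on day 5. No late array reached down to an early one in either treatment. The change was 1.39 ± 0.25 in RANKL cells (2.62-fold, limma adjusted p = 0.00413) and 1.31 ± 0.27 in control cells (2.48-fold, limma adjusted p = 0.0116). Gusb, the beta-glucuronidase, changed by -0.10 in RANKL cells and -0.12 in control cells, and Ids, the iduronate sulfatase, by 0.34 in RANKL cells and 0.03 in control cells. The other 2 probe sets of Ids were dim, under 100 on all arrays. They changed by 0.83 (limma adjusted p = 0.0478) and 0.05 in RANKL cells, and by -0.15 and -0.05 in control cells.

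Neither Lipa nor Npc2 passed the test for time. Lipa, the acid lipase that frees cholesterol from its esters, changed by 0.46 in RANKL cells and 0.11 in control cells. Npc2, the soluble partner that hands cholesterol to Npc1, changed by 0.32 in RANKL cells and 0.31 in control cells.

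Tpp1 and Lgmn, both proteases, rose in both treatments. Tpp1, the tripeptidyl peptidase lost in late infantile Batten disease, had 2198 on day 1, 2757 and 2886 on day 2, 6290 and 5789 on day 4, and 4639 and 4076 on day 5 under RANKL. Its signals without RANKL were 2385 on day 1, 1948 and 2733 on day 2, 5901 and 5447 on day 3, 4860 and 5110 on day 4 and 4772 on day 5. The 4 late RANKL arrays and the 5 control arrays of days 3 to 5 all exceeded every early array. The change was 1.03 ± 0.14 in RANKL cells (2.04-fold, limma adjusted p = 0.00131) and 1.05 ± 0.16 in control cells (2.06-fold, limma adjusted p = 0.00276).

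Lgmn, the asparaginyl endopeptidase that also processes cathepsins, had 1130 on day 1, 1161 and 1340 on day 2, 2777 and 3031 on day 4, and 1420 and 1384 on day 5 in RANKL cells. Cells without RANKL had 1505 on day 1, 1912 and 2218 on day 2, 4270 and 2597 on day 3, 5486 and 4096 on day 4 and 1952 on day 5. Late RANKL arrays lay above early RANKL arrays, while the day 5 control array fell among those of day 2. The change was 0.75 ± 0.18 in RANKL cells (1.68-fold, limma adjusted p = 0.0172) and 0.78 ± 0.20 in control cells (1.72-fold, limma adjusted p = 0.0283). Without replicate 2 of RANKL day 4 the RANKL change was 0.72 (limma adjusted p = 0.0501). The control call was lost without the day 1 array (0.56, limma adjusted p = 0.162), replicate 1 of day 2 (0.73, limma adjusted p = 0.0849) or replicate 1 of day 4 (0.67, limma adjusted p = 0.0763). Acp2, a lysosomal acid phosphatase, changed by 0.65 in RANKL cells (limma adjusted p = 0.0984) and 0.63 in control cells (limma adjusted p = 0.171). Ppt1, the palmitoyl-protein thioesterase, stayed under 100 on all 15 arrays, between 10.52 and 45.44, so its probe set carried little signal.

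**Figure D2:**
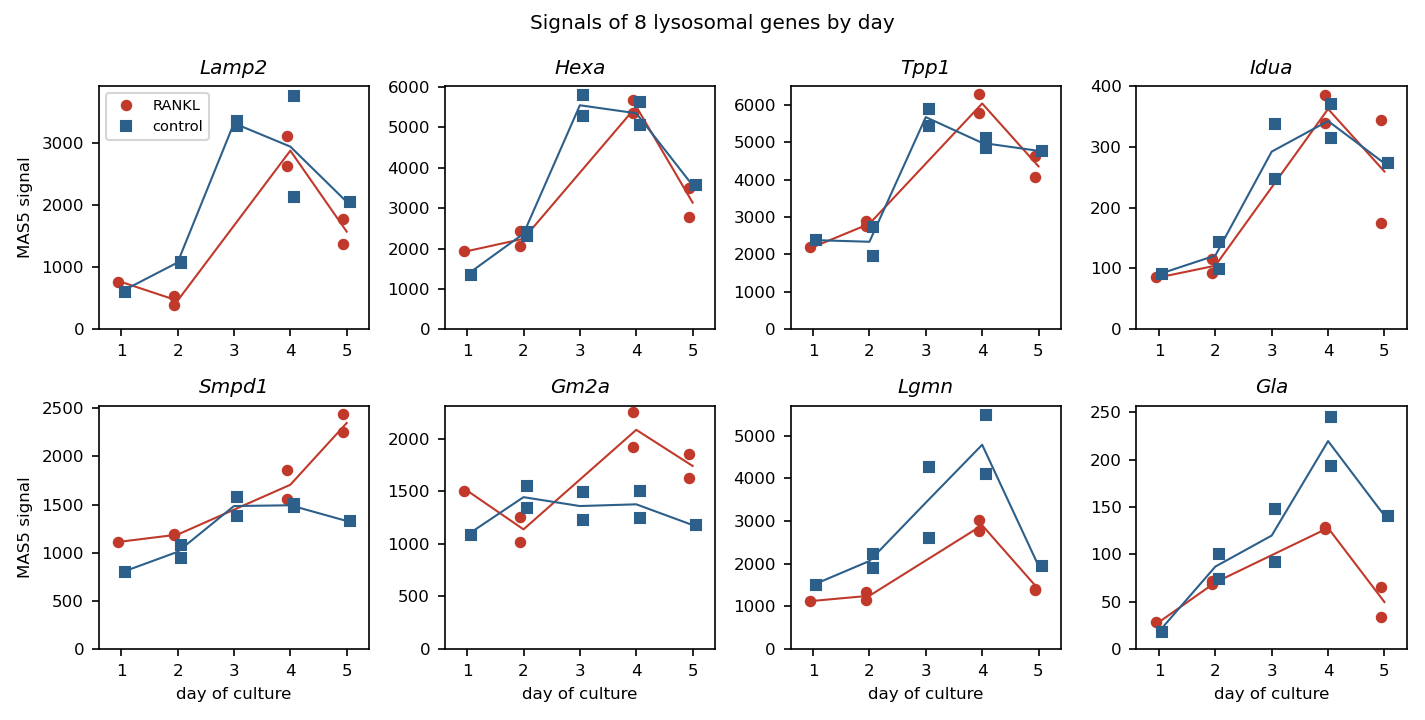
Signals of 8 lysosomal genes by day of culture, with RANKL arrays and control arrays as separate points and lines through the day means. The x axis is the day and the y axis the MAS5 signal from 0; Lamp2, Hexa, Tpp1 and Idua are high by day 4 in both treatments, Smpd1 and Gm2a lie higher with RANKL at days 4 and 5, and Lgmn and Gla lie lower with RANKL at day 4.

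The day-to-day comparisons, added after the values were seen, found rises between days 2 and 4 in RANKL cells and between days 2 and 3 in controls. Day 2 was not tested against day 1. In controls the median deviation of the 29 genes from their own means was -0.56 on day 1 and -0.16 and -0.11 on day 2. From day 2 to day 4 in RANKL cells, 16 of the 29 genes rose, against 7.08% of all probe sets, and 0 fell, against 5.45%, with 23 at an unadjusted p under 0.05. The median was 0.86 and 27 changes were positive. Lamp2 led with 2.57 ± 0.25 (5.96-fold, limma adjusted p = 0.000444), and Galc, Idua, Hexa, Man2b1, Lgmn, Npc1, Asah1, Tpp1, Psap, Gm2a and Gaa rose with it. So did Lipa, Acp2, Laptm5 and Fuca1. Other probe sets changed less, by 0.77 for Lamp2 (limma adjusted p = 0.0609), 0.68 for Hexa (limma adjusted p = 0.159), 0.06 for Man2b1, 0.19 and 0.28 for Psap, and -0.10 for a dim one of Gaa. With the mean of a gene's probe sets, Man2b1 (0.64, limma adjusted p = 0.0794), Gaa (0.30, limma adjusted p = 0.438) and Psap (0.47, limma adjusted p = 0.14) did not pass. The count was 7 without replicate 2 of RANKL day 2 and 10 without replicate 2 of RANKL day 4. Of the macrophage markers 4 of 10 rose too between these days, with a median of 0.79, and their part in the result was not tested.

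Lipa had 2426 on day 1, 2038 and 2041 on day 2, 4280 and 5769 on day 4, and 1422 and 2488 on day 5 in RANKL cells. Its control signals were 1382 on day 1, 2791 and 2997 on day 2, 2677 and 3972 on day 3, 3345 and 3174 on day 4 and 1438 on day 5. In RANKL cells the 2 day 4 arrays were the highest, and both day 5 arrays lay below them. The change from day 2 to day 4 was 1.27 ± 0.26 (2.41-fold, limma adjusted p = 0.00925), but 1.27 (limma adjusted p = 0.0622) without replicate 2 of day 2 and 1.06 (limma adjusted p = 0.0742) without replicate 2 of day 4.

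Acp2 had 430.9 on day 1, 349.4 and 292 on day 2, 726.2 and 934.3 on day 4, and 653.4 and 290.8 on day 5 under RANKL. Its signals in controls were 330.7 on day 1, 462.5 and 354 on day 2, 704.7 and 872.6 on day 3, 732.3 and 631.5 on day 4 and 502.6 on day 5. The day 5 RANKL replicates lay far apart, at 653.4 and 290.8, a log2 difference of 1.09. From day 2 to day 4 Acp2 rose by 1.28 ± 0.31 (limma adjusted p = 0.0195), but not past the threshold without replicate 2 of day 2 (1.17, limma adjusted p = 0.128) or replicate 2 of day 4 (1.11, limma adjusted p = 0.12).

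Laptm5 had 8077 on day 1, 4612 and 4761 on day 2, 11240 and 7405 on day 4, and 7600 and 6169 on day 5 in RANKL cells. Without RANKL it had 5100 on day 1, 8228 and 9595 on day 2, 10750 and 15320 on day 3, 10430 and 10950 on day 4 and 10430 on day 5. The 2 day 2 RANKL arrays were the lowest of all 15, and those of day 4 lay above them. Its rise from day 2 to day 4 was 0.96 ± 0.24 (limma adjusted p = 0.0243), and leaving out either day 2 replicate or replicate 1 of day 4 gave 0.66 to 0.98 with limma adjusted p between 0.0753 and 0.166. Its second probe set rose by 0.66 (limma adjusted p = 0.0246).

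Fuca1 had 770.3 on day 1, 506.8 and 484.2 on day 2, 881.8 and 731.2 on day 4, and 415.5 and 475.2 on day 5 in RANKL cells. Controls had Fuca1 signals of 613.8 on day 1, 735.9 and 867.2 on day 2, 903.9 and 1207 on day 3, 892.9 and 827.8 on day 4 and 681.2 on day 5. The day 2 and day 5 RANKL arrays were the lowest of all. The change from day 2 to day 4 was 0.66 ± 0.19 (limma adjusted p = 0.0405), and it did not pass in 12 of 23 alternatives, among them leaving out any array of days 2 or 4 in either treatment (limma adjusted p between 0.0533 and 0.201).

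In control cells 6 of the 29 genes rose between days 2 and 3, against 4.09% of all probe sets, and 0 fell, against 2.99%, with 17 at an unadjusted p under 0.05. They were Lamp2 (1.60 ± 0.25, 3.03-fold, limma adjusted p = 0.00599), Tpp1 (1.28 ± 0.18, limma adjusted p = 0.00393), Hexa (1.22 ± 0.17, limma adjusted p = 0.00377), Psap (0.78), Man2b1 (0.74) and Asah1 (0.73). Other probe sets changed by 0.59 for Lamp2 (limma adjusted p = 0.173), 0.31 for Hexa (limma adjusted p = 0.59) and -0.04 for Man2b1. Those of Psap changed by 0.26 and 1.23 (limma adjusted p = 0.557 and 0.0548). The mean of the Man2b1 probe sets changed by 0.35 (limma adjusted p = 0.381). The count was 1 without replicate 1 of control day 2, 3 without replicate 2 of control day 2 or replicate 1 of control day 3, 2 without replicate 2 of control day 3, and 10 without either replicate of RANKL day 5, which takes part through the shared estimate of spread. Control arrays of days 3 to 5 lay above all control arrays of days 1 and 2 for 15 genes (51.7%, against 10.7% of all probe sets), and below them for 0 (against 10% of all probe sets). RANKL arrays of days 4 and 5 lay above those of days 1 and 2 for 14 genes (48.3%, against 11.8% of all probe sets).

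At day 5 most genes had lower signals than at day 4. Of the 29 genes, 25 had a negative change between days 4 and 5 in RANKL cells and the median was -0.39, against 0.05 over all genes, of which 56.4% were positive, but only Lipa fell past the threshold, by 1.39 ± 0.26 (2.61-fold lower, limma adjusted p = 0.0435), against 0.411% of all probe sets. That call was lost in 15 of 23 alternatives, among them leaving out any replicate of control days 2, 3 or 4 or of RANKL days 2 or 4, or replicate 1 of RANKL day 5 (limma adjusted p between 0.0701 and 0.188). The next changes were -1.03 for Lgmn (limma adjusted p = 0.0833) and -0.92 for Man2b1 (limma adjusted p = 0.0583), while Smpd1 had 0.46. Between days 4 and 5 in control cells 0 genes passed in limma (0.0403% of all probe sets), with 5 at an unadjusted p under 0.05. There 22 changes were negative and the median was -0.21, against -0.07 over all genes, of which 42.4% were positive. Lgmn had -1.27 (limma adjusted p = 0.139) and Lipa -1.16 (limma adjusted p = 0.206).

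Taking the day with the highest mean for each gene, 23 of the 29 genes peaked on day 4 in RANKL cells, against 25.1% of all genes. Glb1, Smpd1 and Ids peaked on day 5, Scarb2 and Laptm4a on day 1, and Ppt1 on day 2. In control cells 14 peaked on day 3 (19.8% of all genes), 7 on day 4 (16.3%), 5 on day 5 (19.4%), 3 on day 2 (19%) and 0 on day 1 (25.5%). RANKL has no day 3 here, so the peak days of the 2 treatments cannot be compared.

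**Figure D3:**
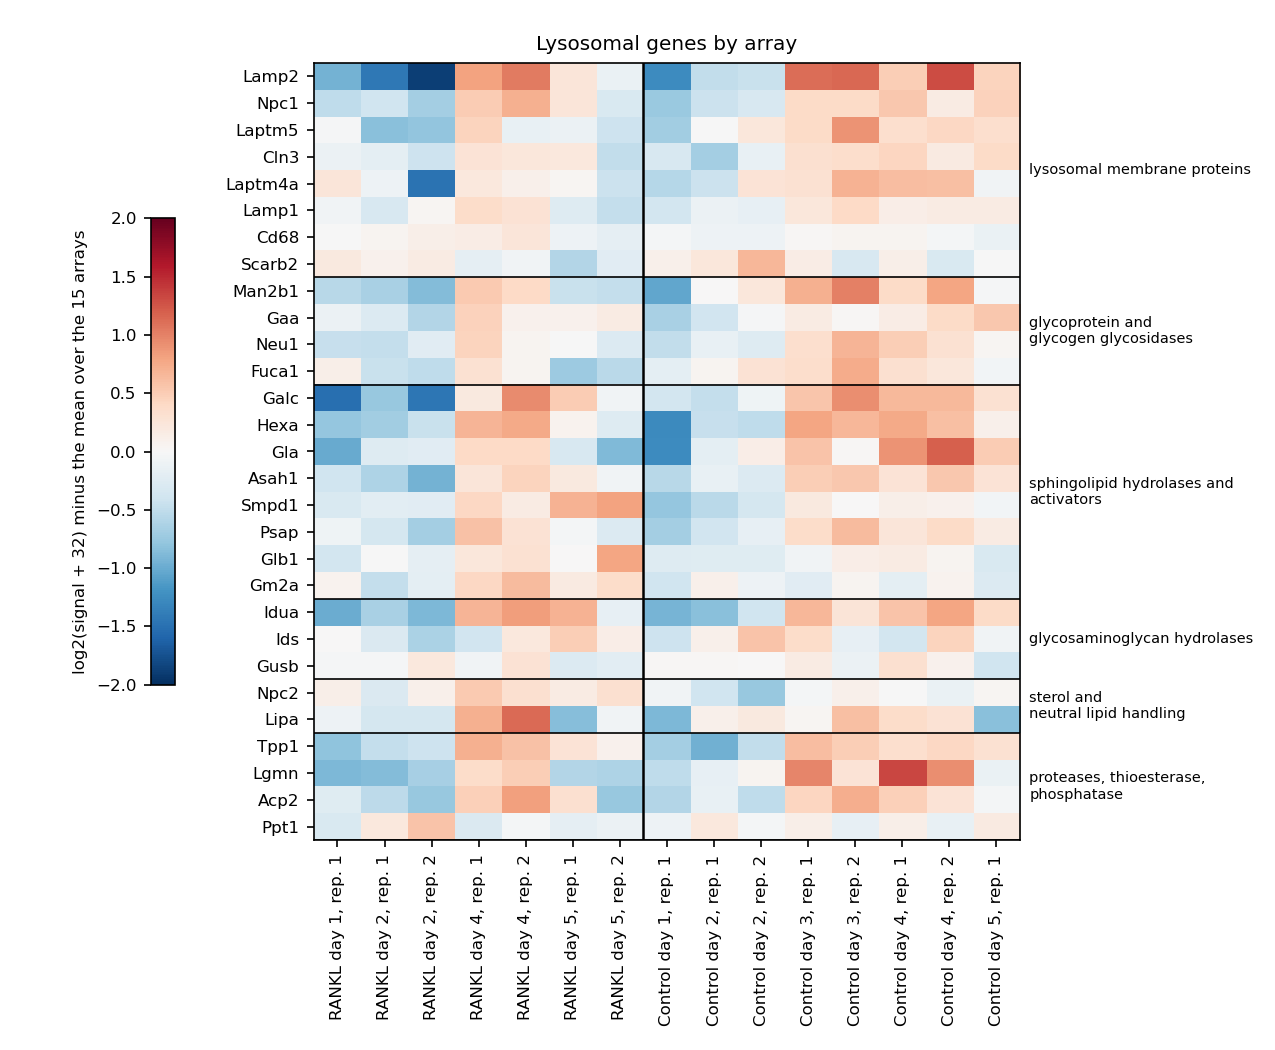
Log2 signal of the 29 lysosomal genes on each of the 15 arrays as the deviation from the gene's mean, with genes grouped by role and arrays by treatment and day. Blue is below and red above the mean, on a scale from -2 to 2. In both treatments days 1 and 2 are mostly blue and day 4 mostly red, and day 3, present for controls alone, is mostly red.

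The median deviation of the 29 genes from their own means shows the course array by array. In RANKL cells it was -0.24 on day 1, -0.36 and -0.45 on day 2, 0.41 and 0.31 on day 4, and 0.04 and -0.22 on day 5. In control cells it was -0.56 on day 1, -0.16 and -0.11 on day 2, 0.34 and 0.38 on day 3, 0.34 and 0.30 on day 4, and 0.05 on day 5. The genes were low on all 6 early arrays and high on the arrays of days 3 and 4. Across the 15 arrays, which share days and treatments, the 406 pairs of genes had a median Pearson correlation of 0.47, with 335 pairs above 0. The highest was 0.99 for Lamp2 with Asah1, followed by 0.94 for Idua with Tpp1, and the lowest was -0.68 for Scarb2 with Smpd1. These are descriptions of shared time courses.

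RANKL was set against controls of the same day to ask what the treatment did at a matched time. Acp5, the tartrate-resistant acid phosphatase of osteoclasts, checks the treatment. It had 535.1 on day 1, 5066 and 6914 on day 2, 6187 and 8863 on day 4, and 9370 and 12280 on day 5 in RANKL cells, against 991.8 on day 1, 257.4 and 90.6 on day 2, 109.2 and 62.81 on day 3, 89.44 and 74.13 on day 4 and 43.54 on day 5 in controls. Acp5 was higher with RANKL from day 2 on and not at day 1, and over the 4 days the change was 4.33 ± 0.21.

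Over the 4 shared days 0 of the 29 genes passed in limma, against 1.09% of all probe sets, and 7 had an unadjusted p under 0.05. The median change was -0.04, against 0.00 over all genes, and 11 changes were positive. The nearest to the threshold were Smpd1, at 0.42 ± 0.09 (95% interval 0.22 to 0.62, limma adjusted p = 0.0572), and Lgmn, at -0.57 ± 0.13 (95% interval -0.86 to -0.28, limma adjusted p = 0.077). Leaving out either day 1 array drops day 1, so both such fits compare days 2, 4 and 5. Without the day 1 control array or the day 1 RANKL array 3 genes passed: Lgmn (-0.63, limma adjusted p = 0.0352 and 0.0353), Smpd1 (0.41, limma adjusted p = 0.0451 and 0.0457) and Man2b1 (-0.48, limma adjusted p = 0.0471 and 0.0474). Lgmn also passed without either control day 3 replicate (limma adjusted p = 0.0434 and 0.0436), and Smpd1 without replicate 1 of RANKL day 5 (0.44, limma adjusted p = 0.0459). The other probe set of Man2b1 had -0.04 over the 4 days (limma adjusted p = 0.977). Galc had -0.53 ± 0.22 (limma adjusted p = 0.372), Gla -0.43 ± 0.18 (limma adjusted p = 0.402), Npc2 0.34 and Gm2a 0.31 (limma adjusted p = 0.248 for each).

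The 95% intervals describe the mean RANKL change over the 4 days, given the spread among these arrays. They do not limit the change on any single day. If replicates were technical, they leave out variation between cultures. For the genes that rose with time in both treatments, Lamp2 had -0.31 (interval -0.63 to 0.02), Hexa 0.07 (-0.15 to 0.29), Tpp1 0.08 (-0.16 to 0.31), Npc1 -0.05 (-0.31 to 0.22), Idua -0.07 (-0.47 to 0.34), Asah1 -0.18 (-0.41 to 0.05) and Man2b1 -0.24 (-0.47 to 0.00). Among the other hydrolases and activators, Gaa had -0.03, Neu1 -0.11, Fuca1 -0.25, Glb1 0.23, Psap 0.04, Gusb 0.02, Ids -0.03, Lipa 0.32, Ppt1 -0.10 and Acp2 0.03. Of the other membrane proteins, Lamp1 had -0.01, Scarb2 -0.17, Cd68 0.10, Laptm4a -0.12, Laptm5 -0.27 and Cln3 -0.06. A p that misses the threshold does not show that RANKL left these genes unchanged.

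**Figure D4:**
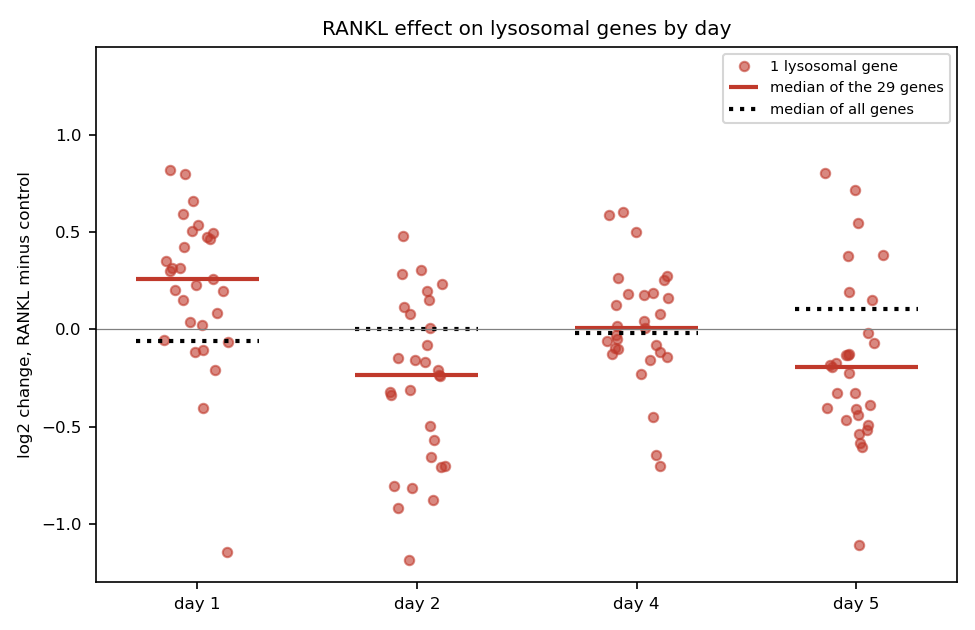
Log2 change, RANKL minus control of the same day, for each of the 29 lysosomal genes at days 1, 2, 4 and 5, with the median of the 29 genes (solid bar) and of all genes (dotted bar). The median of the lysosomal genes is 0.26 on day 1, -0.23 on day 2, 0.00 on day 4 and -0.19 on day 5, and 0 genes passed the threshold on any day.

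The sign of the median RANKL change varied by day. Some genes kept the same direction on every shared day, such as Smpd1, higher with RANKL, and Lgmn, lower with RANKL. At day 1, with 1 array against 1, 0 of the 29 genes and 0% of all probe sets passed in limma, and 1 gene had an unadjusted p under 0.05. The median was 0.26, against -0.06 over all genes, and 22 changes were positive. The largest were -1.14 for Galc (limma adjusted p = 0.847), 0.82 for Laptm4a and 0.80 for Lipa. Laptm4a had 3852 in RANKL cells and 2170 in control cells on that day.

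At day 2 most changes were negative, with 9 of the 29 positive. In limma 0 of 29 passed, against 0.853% of all probe sets, with 9 at an unadjusted p under 0.05, and the median was -0.23, against 0.00 over all genes. Lamp2, with 536.9 and 382.3 in RANKL cells against 1059 and 1086 in control cells, had -1.19 ± 0.25 (2.27-fold lower, limma adjusted p = 0.0609). It passed without either replicate of control day 4 (limma adjusted p = 0.0441 and 0.0447). Man2b1, with 1081 and 920.6 in RANKL cells against 1713 and 2012 in control cells, had -0.88 ± 0.19 (limma adjusted p = 0.0608). Laptm5, with 4612 and 4761 in RANKL cells against 8228 and 9595 in control cells, had -0.92 ± 0.24 (limma adjusted p = 0.143), and its other probe set -0.73 (limma adjusted p = 0.0872). The other probe sets of Lamp2 and Man2b1 gave less, at -0.39 (limma adjusted p = 0.678) for Lamp2 and 0.06 (limma adjusted p = 0.984), the opposite sign, for Man2b1. Both RANKL arrays lay below both control arrays for 13 genes (44.8%, against 19.2% of all probe sets) and above them for 6 (20.7%, against 18.8% of all probe sets). Among these 6 were Npc2, at 0.48, Tpp1 and Smpd1. Of the 10 macrophage markers 4 fell with RANKL on the same day, with a median of -0.96, and their part in the result was not tested.

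At day 4 the changes were split about evenly, with 15 positive. In limma 0 of the 29 passed, against 0.266% of all probe sets, with 4 at an unadjusted p under 0.05, and the median was 0.00, against -0.02 over all genes. The largest changes were -0.70 for Lgmn (limma adjusted p = 0.398), with 2777 and 3031 in RANKL cells against 5486 and 4096 in control cells, then -0.65 for Gla, 0.60 for Lipa and 0.59 for Gm2a.

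At day 5, with 2 RANKL arrays and 1 control array, 0 of the 29 passed in limma, against 0.918% of all probe sets, with 6 at an unadjusted p under 0.05. The median was -0.19, while over all genes it was 0.10. Gla, with 65.34 and 33.91 in RANKL cells against 140.8 in control cells, had -1.11 ± 0.38 (2.16-fold lower, limma adjusted p = 0.21). Smpd1, with 2252 and 2443 in RANKL cells against 1330 in control cells, had 0.80 ± 0.19 (1.75-fold, limma adjusted p = 0.0785). Glb1, with 894.8 and 1557 in RANKL cells against 708.1 in control cells, had 0.71 ± 0.28 (limma adjusted p = 0.27), and 1.10 (limma adjusted p = 0.0292) without replicate 1 of RANKL day 5. Over days 4 and 5 together, all RANKL arrays lay above all control arrays for Smpd1, Gm2a and Npc2 (10.3%, against 5.26% of all probe sets) and below them for Gla (3.45%, against 3.71%).

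The wider lysosomal system was read from 6 lists of genes, whose counts of rises stand beside 8.98% of all probe sets in RANKL cells and 5.98% in control cells. Falls stand beside 5.82% of all probe sets in RANKL cells and 4.87% in control cells. Lysosomal ion channels, transporters and other membrane proteins rose for 8 of 15 genes in RANKL cells and 5 of 15 in control cells. Clcn7, the chloride-proton exchanger that osteoclasts need to acidify the resorption pit, rose by 1.23 ± 0.16 in RANKL cells (limma adjusted p = 0.000965) and by 0.70 ± 0.18 in control cells (limma adjusted p = 0.0273). Mcoln2, a cation channel, rose by 1.07 ± 0.30 in RANKL cells (limma adjusted p = 0.0359) and by 2.47 ± 0.33 in control cells (limma adjusted p = 0.00167). Slc11a2, an iron transporter, and Atp13a2, a lysosomal P-type ATPase, rose in both treatments, by 0.92 and 0.92 in RANKL cells and by 1.31 and 1.53 in control cells. Clcn3 also rose in both. Of the genes for late endosome and lysosome trafficking and fusion, 8 of 23 rose in RANKL cells and 4 of 23 rose in control cells, where Vamp8 fell by 0.98 ± 0.20 (limma adjusted p = 0.0109). Rab5a, Rab9 and Stx7, which act in endosome traffic and fusion, rose in both, while the SNARE Snap23 rose by 1.27 ± 0.26 in RANKL cells (limma adjusted p = 0.0073).

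Of the genes for mannose 6-phosphate tagging and sorting, 5 of 24 rose in RANKL cells and 4 of 24 in control cells. In RANKL cells 2 of the 24 fell, which is near the 5.82% of all probe sets that fell. Gnptab, which encodes subunits of the enzyme that adds the tag, rose by 1.25 ± 0.25 in RANKL cells (limma adjusted p = 0.00725), and Igf2r, the large receptor for the tag, by 0.79 ± 0.17 (limma adjusted p = 0.00883). Ap3s1 and Ap3m1 of the AP-3 adaptor rose in both treatments, whereas Ap1s1 of the AP-1 adaptor fell by 1.23 ± 0.23 in RANKL cells (limma adjusted p = 0.00503). Among other lysosomal hydrolases and cofactors, 1 of 11 rose in RANKL cells, about the share over all probe sets, and 2 of 11 in control cells. Naglu, which degrades heparan sulfate, rose by 1.01 ± 0.15 in RANKL cells (limma adjusted p = 0.00163) and by 1.15 ± 0.16 in control cells (limma adjusted p = 0.00203). For the MiT/TFE factors and the lysosomal mTORC1 scaffold, 1 of 16 rose in each treatment, which is also near the share over all probe sets, the MiT/TFE member Mitf by 0.92 ± 0.20 in RANKL cells (limma adjusted p = 0.0101) and Rragc, a GTPase of that scaffold, by 0.71 ± 0.16 in control cells (limma adjusted p = 0.0189), and Mtor fell by 0.63 ± 0.15 in RANKL cells (limma adjusted p = 0.0175). Of the autophagy genes 3 of 18 rose in each, with the autophagy receptor Nbr1 and the conjugation protein Atg12 in both. In the 6 RANKL comparisons, where 0% to 1.09% of all probe sets passed, 0 genes of these lists did, which is near that share.

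**Figure D5:**
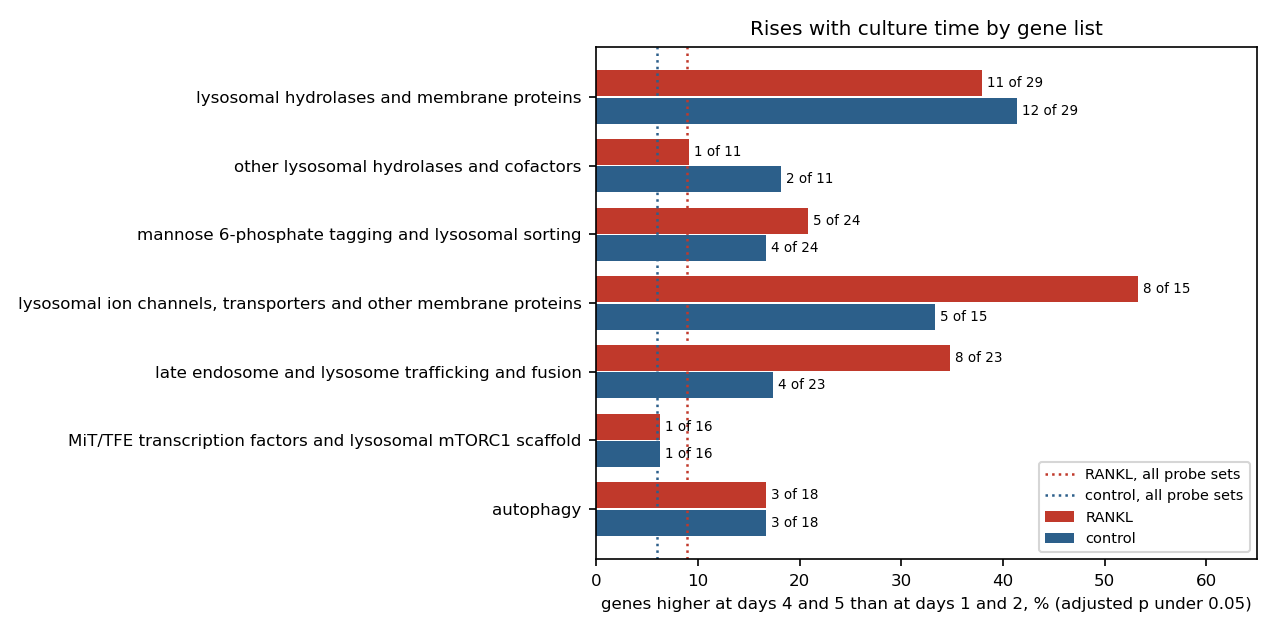
Share of genes in each list that were higher at days 4 and 5 than at days 1 and 2, in RANKL cells and in control cells, with the share over all probe sets as dotted lines. The lysosomal hydrolases and membrane proteins had 11 of 29 in RANKL cells and 12 of 29 in control cells, and the ion channels and transporters 8 of 15 and 5 of 15.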

How the data were processed

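RNA from 15 samples was biotin-labelled and hybridised to 1 Affymetrix array each. Per the submitters' processing notes the authors used MAS5, version not given in the sources used here, and deposited linear signal intensities for 12488 probe sets. The 2% trimmed mean of these intensities was 500 on each array, so no further normalization was applied. Scanner intensities and detection calls were not analysed here, and the number of arrays limits the precision.

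The 66 control probe sets were left out, and 12422 were tested as log2(signal + 32) with no filter on dim signals. A mean for each of 9 groups was fitted with limma 3.58.1 in R 4.3.3 (lmFit, eBayes with an intensity trend, 6 residual and 5.385 prior degrees of freedom). Groups with 1 array were given the spread of the rest. All tests were two-sided, with Benjamini-Hochberg adjustment over all probe sets within a comparison. Changes with time are the mean of days 4 and 5 minus the mean of days 1 and 2, and the difference of these changes was tested as well. The code was tested on simulated data.

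GEO's platform annotation names 1 gene for 10833 probe sets. The members and lists were chosen with earlier results of these data known, and the 4 day-to-day comparisons were added after seeing the data. Text names members past the threshold, the 3 largest changes in a comparison, and up to 4 genes per list. Replicate numbers did not pair samples: same-numbered deviations correlated between -0.169 and 0.119 over 15 pairs of groups. Alternatives covered the pseudocount, quantile normalization, a filter on dim probe sets, the intensity trend, the beta-actin ratio, the mean of a gene's probe sets, the choice of days and each replicate left out. Leaving out the only array of a group also drops its day from a comparison.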

Additional observations from a re-analysis of the deposited data

How the results depend on the processing

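Each group holds 1 or 2 arrays, so calls near the threshold depend on single arrays, and dim genes such as Gla and Galc are limited by signal over background. The 69 gene changes followed through the alternatives were those past the threshold or among the 3 largest of a comparison. Of these, 0 reversed direction, which the choice by size made likely. The other changes printed, many near 0, were not followed. Another background correction and a slide as a block were not run, since both need scanner files. Of 137 alternative counts for the 6 RANKL comparisons, 123 were 0. For RANKL over the 4 days, fits without either day 1 array compare days 2, 4 and 5, as the fit of those days alone does. Over the 4 days, RANKL changed 1 gene (Smpd1) with quantile normalization, 2 (Smpd1 and Lgmn) among the brighter 50% of probe sets and 3 (Man2b1, Smpd1 and Lgmn) with days 2, 4 and 5 only, and 0 to 3 when a replicate was left out. At day 2 the count was 1 (Lamp2) with a pseudocount of 1, 2 (Lamp2 and Man2b1) among the brighter 50%, and 0 to 1 without a replicate. At day 5 it was 1 (Smpd1) with quantile normalization and 0 to 1 without a replicate. The count for time in RANKL cells lay between 9 and 14. In control cells the count of 12 became 3 with the beta-actin ratio as a covariate and 5 with day 2 alone as the early time, and was 5 to 13 without a replicate. With that covariate the changes of Npc1 (1.01), Idua (1.66), Gla (1.77), Asah1 (0.75) and Lgmn (1.05) were as large or larger, and those of Man2b1, Gaa, Smpd1 and Psap smaller, while these 9 calls were lost. Lamp2, Hexa and Tpp1 passed in both treatments under each of the 24 alternatives. RANKL day 4 against day 2 gave 7 to 16 without a replicate. RANKL day 5 against day 4 gave 0 with a pseudocount of 100, quantile normalization, no intensity trend or the beta-actin covariate, 4 among the brighter 50%, and 0 to 2 without a replicate. Control day 3 against day 2 gave 12 among the brighter 50%, 3 without the trend, 3 with the beta-actin covariate, and 1 to 10 without a replicate. The cause was not tested. Fits with a replicate block gave 0 genes in each RANKL comparison, 11 for time in RANKL cells, 12 in control cells, 15 for RANKL day 4 against day 2, 1 for RANKL day 5 against day 4, 4 for control day 3 against day 2 and 0 for control day 5 against day 4. For RANKL over the 4 days, the extremes given next do not span those days. The lowest came without the day 5 control array (days 1, 2 and 4). The highest came without the day 1 control array (days 2, 4 and 5). Over all probe sets, main counts and their range over all alternatives were 136 (11 to 427) for RANKL over the 4 days, 0 throughout at day 1, 106 (2 to 147) at day 2, 33 (9 to 54) at day 4, 114 (52 to 355) at day 5 and 5 (2 to 21) for the difference of the time changes. For time they were 1839 (1086 to 2190) in RANKL cells and 1348 (169 to 1630) in control cells. The day-to-day counts were 1556 (541 to 1844) and 79 (0 to 181) in RANKL cells, and 880 (49 to 1136) and 5 (0 to 28) in control cells.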
